A study of Mus musculus with 6 samples.

Results

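The transcripts of 32 listed target genes of p53 were followed in muscle stem cells of mice labelled Setdb1 KO, in which Setdb1 transcripts were lower but still present. p53, encoded by Trp53 in the mouse, is a transcription factor that is stabilised after DNA damage and other stress. The 32 genes act in cell cycle arrest, in feedback on p53, in DNA repair and in metabolism, and genes of the apoptosis machinery were left out of the list. They were found by symbol among 55487 Ensembl genes, and all 32 matched. Of these, 27 had enough reads to be tested, among 11224 genes tested in all.

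The 6 libraries came from muscle stem cells, the resident precursors of muscle fibres, of mice 10 weeks old. The cells were collected 60 h after CTX (cardiotoxin, a snake venom toxin that kills fibres and starts regeneration). The Setdb1 KO group held 3 libraries of mice labelled KO and given tamoxifen, a drug used to switch on inducible recombinases, and the control group held 3 libraries of mice labelled WT and given oil. Both groups shared the age and the injury, and the effects of tamoxifen and of genotype cannot be told apart. The sources used here do not give the recombinase, its promoter or the deleted exon. Setdb1 encodes a histone H3 lysine 9 methyltransferase, a silencing enzyme of chromatin.

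In unstressed cells p53 is kept low by MDM2, a ubiquitin ligase whose gene is itself a p53 target, so that p53 and MDM2 form a negative feedback loop. When p53 accumulates it binds response elements made of a pair of 10-base half-sites and activates genes such as Cdkn1a, whose product p21 inhibits cyclin-dependent kinases and halts the cell cycle. Other targets repair DNA, restrain growth signalling through mTOR, or set the balance between survival and death. Muscle stem cells leave quiescence and divide after injury, and p53 is known to take part in their exit from and return to quiescence.

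Total counts ran from 4052569 to 5178823 in the KO libraries and from 4568845 to 5690844 in the control libraries. Setdb1 itself was at 16.5, 12.7 and 14.7 CPM (counts scaled by library size with TMM factors) in the KO libraries, against 34.8, 40.5 and 32.1 CPM in the control libraries, and the groups did not overlap. A pair of libraries stood apart from the rest. KO library 1 detected 30363 genes, against 18737 to 19951 in the other 5 libraries, and 7369 genes were seen there only, with 0.395% of its counts. Ribosomal RNA took 43.2% of the counts in that library, against 34.7% to 39.1% in the other 5, and mitochondrial genes took 6.15%, against 9.39% to 10.68%. KO library 1 held 2001877 protein-coding counts, against 2639152 to 3050282 in the others. With ribosomal and mitochondrial RNA genes removed, 12 members were again called higher. Control library 3 held 3406 counts of the neutrophil gene S100a9, against 0 in the other control libraries and 2, 1051 and 385 in KO libraries 1, 2 and 3, and it held 112 counts of Xist, against 0 to 8 in the other libraries, with Y-linked genes detected in every library. Counts of members called are therefore also given without these 2 libraries.

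Of the 32 targets, 12 were higher in KO cells in edgeR's quasi-likelihood test with Benjamini-Hochberg adjustment over all genes tested (adjusted p under 0.05), and none was lower. The share of all tested genes called higher was 2.22%, and 0.615% were called lower. At an unadjusted p under 0.05, 16 were higher and 1, Plk2, was lower, beside 10.1% of all tested genes higher and 7.64% lower. DESeq2 called 9 members higher and 0 lower and limma-voom 11 and 0, against backgrounds of 1.06% and 1.48% of genes called higher and 0.266% and 0.303% called lower. The remaining 20 members were 15 that were tested and not called and 5 (Gdf15, Perp, Ddb2, Dcxr and Trp53cor1) with too few reads. Ak1 had enough reads only through the KO libraries, so its presence among the tested genes is not independent of its rise. Without KO library 1 the count of higher members was 8, beside 1.15% of all genes then tested. Without KO library 1 and control library 3 together it was 9, beside 2.56%. These are bulk samples, in which more cells of a type and more RNA per cell cannot be told apart.

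The called members were Trp53inp1, Ccng1, Mdm2, Cdkn1a, Zmat3, Gtse1, Polk, Ephx1, Ak1, Phlda3, Eda2r and Ei24. In each of these 12 genes the lowest KO library lay above the highest control library. Among all tested members this held for 17 of 27, against 12.8% of all tested genes, and the reverse held for 1, Plk2, against 11.5%. The plot of values by library shows the members by role.

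**Figure D1:**
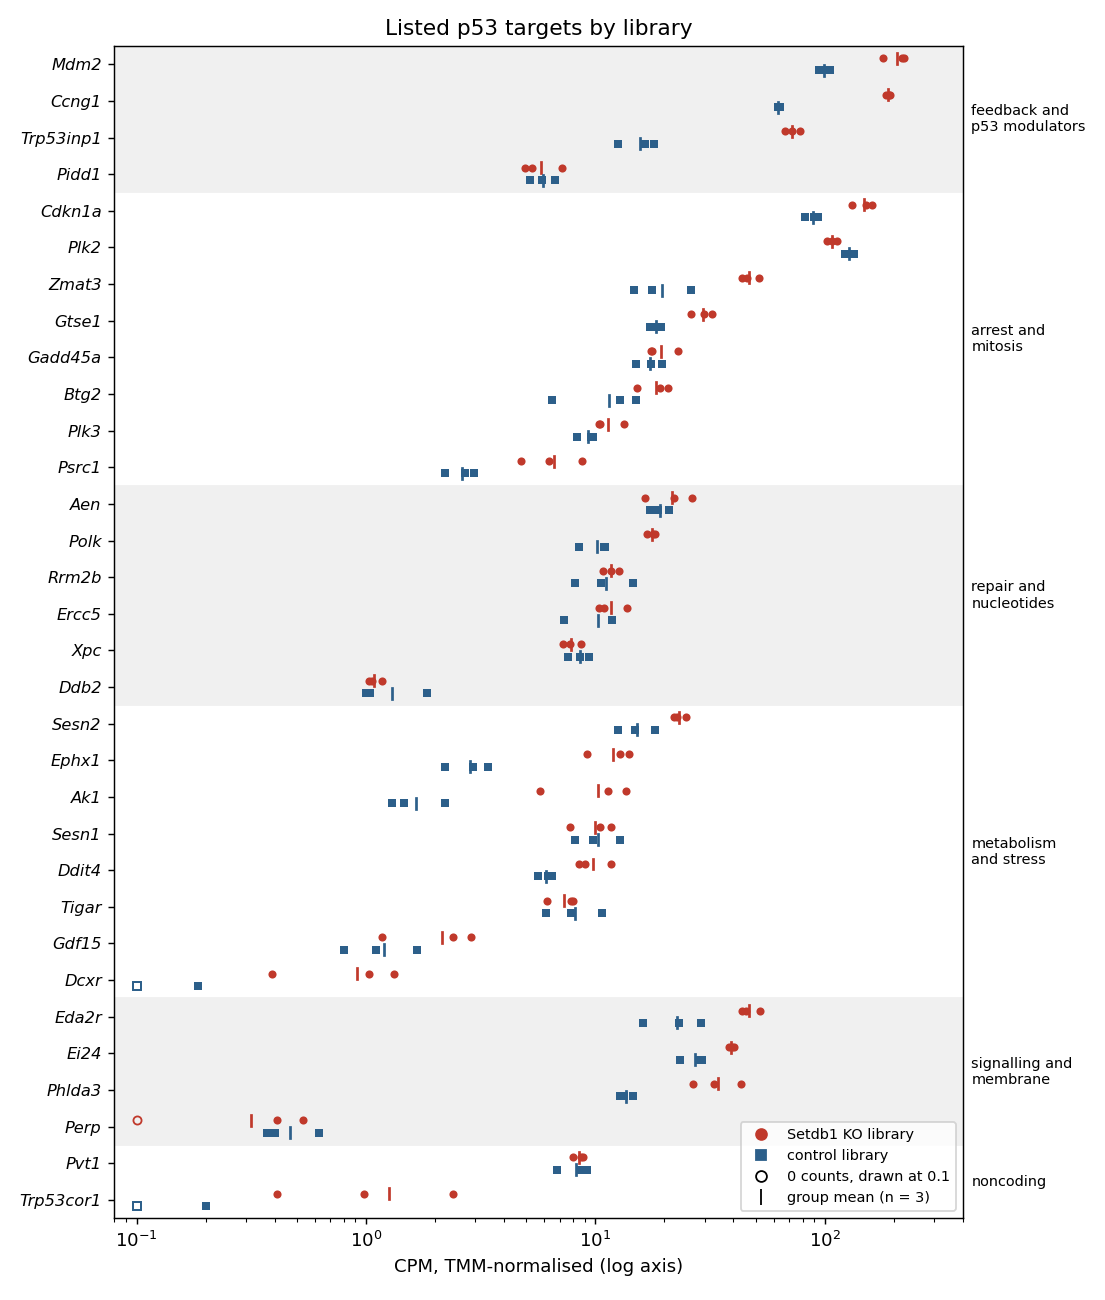
Level of each of the 32 listed p53 targets in CPM (log axis) in the 3 Setdb1 KO libraries (circles, upper row of each gene) and the 3 control libraries (squares, lower row), with a vertical tick at each group mean and open symbols for 0 counts. The KO libraries lie apart from and above the control libraries for Ccng1 (185 to 192 against 62.4 to 63.7 CPM) and Trp53inp1 (67.0 to 78.0 against 12.6 to 17.95 CPM), and the groups overlap for Pidd1, Gadd45a, Sesn1 and Tigar.

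The sequences before the transcription starts were read from RefSeq promoter windows of 300 bases (250 before and 50 after the start, GRCm38.p6), which were held for 24 of the 32 members. They were searched for the p53 consensus element, a pair of half-sites of 3 purines, C, 2 bases of A or T, G and 3 pyrimidines, with a spacer of 0 to 13 bases. The half-site is its own reverse complement, so 1 search covers both strands. Where a gene had several windows, the one with the closest match was kept, and which start the cells used was not determined. With up to 1 mismatch over the 20 bases, a pair was found for 4 of the 24 members, or 16.7%, against 335 of all 27025 genes in the table, or 1.2%. All 4 were among the 10 called members with a window, and none of the 12 members that were tested and not called had one. With up to 2 mismatches the counts were 7 of 24 members (29.2%) and 3102 of all genes (11.5%), and the called and uncalled members were closer, at 4 of 10 and 3 of 12 (25.0%). Members had 1.42 windows per gene and all genes 1.22, and the called members had 1.6 and the uncalled members 1.25, so the amount of sequence searched differed. The members were listed because they are p53 targets, so their share of matches is not independent of how the list was made. The contrast of called and uncalled members rests on 4 genes. Of these, Gtse1 and Polk lost their calls under 7 and 8 of 16 alternatives. These are descriptions of letters, not of p53 binding. The windows of these 4 members are shown because they carry the closest matches among the members that rose, with the pair of half-sites in capitals and the rest in lower case, 5′ to 3′ on the strand of the gene. Each run ends at the start of transcription, except for Gtse1, whose match spans the start.
Cdkn1a (chr17:29090729-29090978, plus strand): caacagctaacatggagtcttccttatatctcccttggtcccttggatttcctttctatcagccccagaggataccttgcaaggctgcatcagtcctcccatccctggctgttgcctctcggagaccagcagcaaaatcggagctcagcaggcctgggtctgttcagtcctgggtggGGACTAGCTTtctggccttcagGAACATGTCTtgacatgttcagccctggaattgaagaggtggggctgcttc
Ccng1 (chr11:40755287-40755536, minus strand): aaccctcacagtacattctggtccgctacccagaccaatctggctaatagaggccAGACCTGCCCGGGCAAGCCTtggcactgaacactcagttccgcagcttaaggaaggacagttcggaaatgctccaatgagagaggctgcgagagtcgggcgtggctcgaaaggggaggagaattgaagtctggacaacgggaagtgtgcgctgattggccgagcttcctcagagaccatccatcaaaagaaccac
Gtse1 (chr15:85859696-85859964, plus strand): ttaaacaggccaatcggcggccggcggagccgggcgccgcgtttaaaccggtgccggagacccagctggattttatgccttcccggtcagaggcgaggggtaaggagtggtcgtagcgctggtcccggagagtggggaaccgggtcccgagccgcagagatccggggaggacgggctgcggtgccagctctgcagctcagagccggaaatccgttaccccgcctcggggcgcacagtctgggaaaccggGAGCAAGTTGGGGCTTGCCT
Polk (chr13:96519188-96519437, minus strand): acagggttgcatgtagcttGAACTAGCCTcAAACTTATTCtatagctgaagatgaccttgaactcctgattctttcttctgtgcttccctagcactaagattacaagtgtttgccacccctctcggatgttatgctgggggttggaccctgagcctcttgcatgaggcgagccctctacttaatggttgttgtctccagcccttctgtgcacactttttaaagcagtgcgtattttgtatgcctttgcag
In Cdkn1a both half-sites match the consensus with 0 mismatches, with a spacer of 12 bases, and the pair begins 73 bases before the start. Pairs were ranked by mismatches first. The 10 bases directly after the marked pair, left in lower case, also match a half-site with 1 mismatch. They form an abutting pair with the marked half-site beside them. In Ccng1 the half-sites abut with 1 mismatch, 195 bases before the start. In Gtse1 they abut with 1 mismatch and begin 1 base before the start. In Polk the spacer is 1 base with 1 mismatch, and the window belongs to a start annotated inside the gene.

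Of 4 members that feed back on p53 or modulate it, 3 rose and 1 did not pass. This count and those of the other roles below stand beside 2.22% of all tested genes called higher. Trp53inp1 encodes a stress protein that binds p53 and favours its activation. It was at 67.0, 78.0 and 71.7 CPM in the KO libraries, against 16.4, 17.95 and 12.6 CPM in the control libraries. The lowest KO library lay far above the highest control library. The log2 fold change was 2.21 (SE 0.15, adjusted p = 5.415e-07).

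Ccng1 encodes cyclin G1, which brings a phosphatase to MDM2. It was at 185, 192 and 189.8 CPM in the KO libraries, against 63.7, 62.4 and 62.4 CPM in the control libraries. The spread within each group was small beside the distance between them, with 189 ± 3.60 CPM in KO cells and 62.8 ± 0.72 CPM in control cells (mean ± SD, n = 3 each), and the log2 fold change was 1.59 (SE 0.11, adjusted p = 7.613e-07). Mdm2 was at 179, 217 and 223 CPM in the KO libraries, against 106, 97.9 and 94.0 CPM in the control libraries. KO library 1 was the lowest of its group and still lay above all control libraries, and the log2 fold change was 1.06 (SE 0.12, adjusted p = 1.417e-04). Pidd1, a death domain scaffold protein, was at 5.80 ± 1.21 CPM in KO cells and 5.90 ± 0.72 CPM in control cells, with overlapping groups (log2 fold change -0.04, SE 0.28).

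Of 8 members that act in arrest or mitosis, 3 rose and 5 did not pass. Cdkn1a, the p21 gene (chr17:29090976-29100727, plus strand, GRCm38), was at 152, 161 and 131 CPM in the KO libraries, against 82.3, 89.6 and 93.5 CPM in the control libraries. KO library 3 was the lowest of its group, and the groups did not overlap. Its log2 fold change, 0.74 (SE 0.12, adjusted p = 0.002569), was smaller than those of Trp53inp1, Ccng1 and Mdm2. An unnamed transcript on the other strand shares 7.7% of the annotated exon length of Cdkn1a and had 15 counts over all 6 libraries.

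Zmat3 encodes an RNA-binding zinc finger protein that acts in p53-dependent growth control. It was at 51.6, 43.5 and 45.7 CPM in the KO libraries, against 26.2, 17.7 and 14.8 CPM in the control libraries, with a log2 fold change of 1.26, an SE of 0.19 and an adjusted p of 0.001487. Control library 1 was the highest of its group and lay below all KO libraries. Gtse1, whose product binds microtubules and restrains p53 in G2, was at 32.2, 29.8 and 26.0 CPM in the KO libraries, against 17.2, 18.4 and 19.4 CPM in the control libraries (log2 fold change 0.67, SE 0.15, adjusted p = 0.02323). The groups did not overlap, but the Gtse1 call was not made by DESeq2 (adjusted p = 0.2837) and ended in edgeR without KO library 1 or 2 or control library 1 or 2 (adjusted p up to 0.1087).

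The other members of this group were not called. Psrc1, a spindle protein gene, was at 8.78, 4.72 and 6.25 CPM in the KO libraries, against 2.20, 2.71 and 2.96 CPM in the control libraries. Its groups did not overlap and its log2 fold change of 1.30 was as large as that of Zmat3, but with a larger error (SE 0.34, adjusted p = 0.05411). Psrc1 passed when no filter on low counts was used (adjusted p = 0.0417). Btg2, an antiproliferative gene that acts in mRNA turnover, differed by 0.68 on the log2 scale (SE 0.26, adjusted p = 0.203).

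Gadd45a, a stress sensor gene induced by DNA damage, was at 17.6, 23.0 and 17.6 CPM in the KO libraries, against 19.4, 15.03 and 17.5 CPM in the control libraries. The groups overlapped (log2 fold change 0.16, SE 0.17, adjusted p = 0.6692). The polo-like kinase genes Plk2 and Plk3 had log2 fold changes of opposite sign, neither past the threshold. Plk2 was at 113, 103 and 108 CPM in the KO libraries, against 125, 134 and 122.7 CPM in the control libraries (log2 fold change -0.24, SE 0.11, adjusted p = 0.2817), and Plk3 differed by 0.31 on the log2 scale (SE 0.20, adjusted p = 0.4539). Plk2 was the only tested member whose KO libraries all lay below the control libraries.

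**Figure D2:**
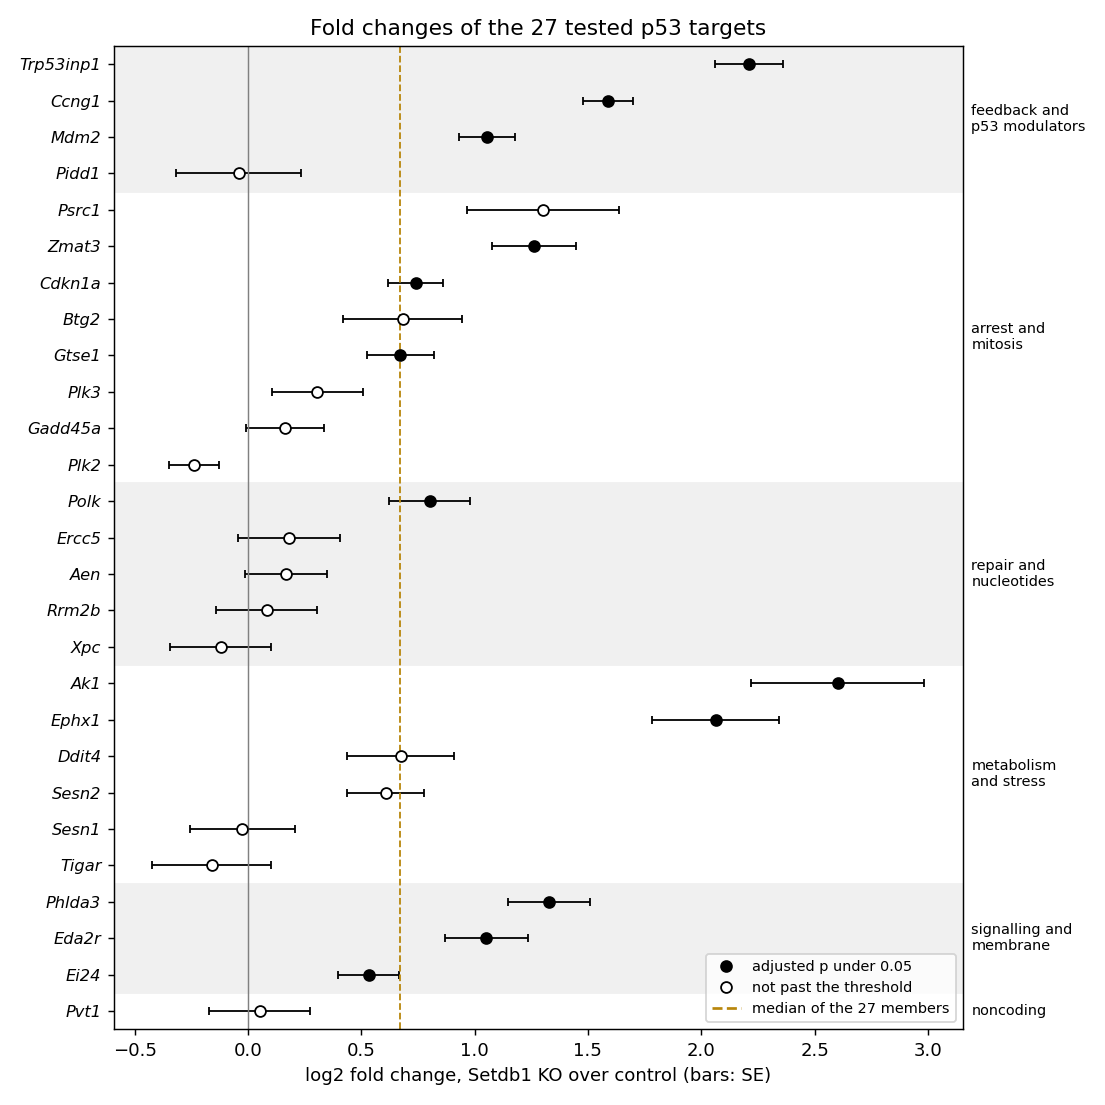
Log2 fold change of Setdb1 KO over control for the 27 tested members, grouped by role, with the standard error as bars, filled points for an adjusted p under 0.05 and a dashed line at the median of the members (0.67). The 12 filled points run from 0.53 (Ei24) to 2.60 (Ak1), and of the genes of repair and nucleotide supply only Polk is filled.

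Of 6 repair and nucleotide genes, 5 were tested and 1, Polk, rose. Polk encodes the translesion DNA polymerase kappa, which copies past damaged bases. It was at 16.8, 18.3 and 17.8 CPM in the KO libraries, against 11.01, 10.9 and 8.497 CPM in the control libraries, with a log2 fold change of 0.80, an SE of 0.18 and an adjusted p of 0.02474. The groups did not overlap, but DESeq2 did not call Polk (adjusted p = 0.3558), and in edgeR the call was lost when any of the 6 libraries except control library 1 was left out (highest adjusted p 0.1018).

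The damage recognition gene Xpc, the endonuclease gene Ercc5, the ribonucleotide reductase subunit gene Rrm2b and the nuclease gene Aen had log2 fold changes of -0.12, 0.18, 0.08 and 0.17 with standard errors of 0.18 to 0.22. In these genes the groups overlapped and the adjusted p ran from 0.6735 (Aen) to 0.8906 (Rrm2b). Ddb2, which recognises ultraviolet damage, had 4, 5 and 6 counts in the KO libraries, against 5, 5 and 10 in the control libraries. Their summed ratio was 0.83 (exact 95% interval 0.39 to 1.70, for counting error only), and 23.8% of the annotated exon length of Ddb2 overlaps Acp2 on the other strand.

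Of 8 metabolism and stress genes, 6 were tested and 2 rose. Ak1, the adenylate kinase that balances adenine nucleotides, had the highest fold change of the 27 tested members. It was at 13.6, 5.75 and 11.3 CPM in the KO libraries, against 2.20, 1.46 and 1.29 CPM in the control libraries (log2 fold change 2.60, SE 0.38, adjusted p = 0.001053). KO library 2 was the lowest of its group, and the groups did not overlap. Ephx1, the microsomal epoxide hydrolase, was at 12.8, 13.96 and 9.19 CPM in the KO libraries, against 3.40, 2.92 and 2.22 CPM in the control libraries (log2 fold change 2.06, SE 0.28, adjusted p = 5.837e-04). Both genes rested on few reads, with 51, 28 and 58 counts of Ak1 in the KO libraries and 11, 7 and 7 in the control libraries.

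The sestrin genes Sesn1 and Sesn2, whose products restrain mTOR complex 1, did not pass. Sesn2 was at 24.7, 22.8 and 22.1 CPM in the KO libraries, against 18.2, 14.8 and 12.6 CPM in the control libraries, with groups that did not overlap (log2 fold change 0.61, SE 0.17, adjusted p = 0.07151). Sesn2 passed without control library 1 (adjusted p = 0.04565). Sesn1 was at 7.71, 10.5 and 11.7 CPM in the KO libraries, against 12.8, 9.81 and 8.13 CPM in the control libraries (log2 fold change -0.02, SE 0.23). The difference between the sestrin genes was not tested.

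Ddit4, another brake on mTOR complex 1, was at 8.51, 11.7 and 8.99 CPM in the KO libraries, against 6.21, 5.64 and 6.47 CPM in the control libraries, with no overlap (log2 fold change 0.67, SE 0.24, adjusted p = 0.1505). Tigar, a phosphatase that lowers glycolytic flux, was at 7.98, 6.16 and 7.82 CPM in the KO libraries, against 7.81, 10.6 and 6.10 CPM in the control libraries (log2 fold change -0.16, SE 0.26, adjusted p = 0.7988). Gdf15, a secreted stress cytokine, had 9, 14 and 6 counts in the KO libraries, against 4, 8 and 6 in the control libraries, too few to be tested. Its summed ratio of 1.78 had an exact 95% interval of 0.96 to 3.41. Dcxr, a carbonyl reductase gene, had 5, 5 and 2 counts in the KO libraries, against 0, 0 and 1 in the control libraries (summed ratio 13.3, exact 95% interval 1.96 to 567).

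Of 4 signalling and membrane genes, 3 were tested and all 3 rose. DESeq2 called 2 of these 3, and without KO library 1 edgeR called 1. Phlda3 encodes a small protein that keeps the kinase AKT from the membrane. It was at 43.1, 33.1 and 26.8 CPM in the KO libraries, against 14.6, 13.4 and 12.7 CPM in the control libraries (log2 fold change 1.33, SE 0.18, adjusted p = 5.837e-04). KO libraries spread more widely than control libraries, with an SD of 8.23 CPM in KO cells and 0.95 CPM in control cells.

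Eda2r, an X-linked gene for a receptor of the ectodysplasin A2 ligand, was at 45.2, 52.2 and 43.4 CPM in the KO libraries, against 23.2, 28.8 and 16.1 CPM in the control libraries (log2 fold change 1.05, SE 0.18, adjusted p = 0.006027). The lowest value was in control library 3, the library with Xist counts, and without that library and KO library 1 Eda2r was still called, but it was not called without KO library 1 alone (adjusted p = 0.06416). Ei24, an endoplasmic reticulum protein gene, was at 40.2, 38.2 and 39.3 CPM in the KO libraries, against 23.4, 28.6 and 29.2 CPM in the control libraries. The difference passed narrowly (log2 fold change 0.53, SE 0.13, adjusted p = 0.04867) and the call ended under 13 of 16 alternatives, DESeq2 among them (adjusted p = 0.4293), and also when any of the 6 libraries except control library 3 was left out (highest adjusted p 0.1522). Perp, a membrane gene of desmosomes, had 2, 2 and 0 counts in the KO libraries, against 2, 3 and 2 in the control libraries.

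Of the 2 noncoding RNAs, 1 was tested and did not pass. Trp53cor1, known as lincRNA-p21, lies 11797 bases from Cdkn1a on chromosome 17. It had 9, 2 and 5 counts in the KO libraries, against 1, 0 and 0 in the control libraries, a summed ratio of 17.7 (exact 95% interval 2.75 to 742, for counting error only). Of its 16 KO counts, 9 came from KO library 1, the library with the widest spread of low counts. It was not tested by the main rule, and edgeR with no filter on low counts gave an adjusted p of 0.21. Pvt1, transcribed beside Myc, was at 7.98, 8.62 and 8.79 CPM in the KO libraries, against 9.21, 8.56 and 6.83 CPM in the control libraries, with overlapping groups (log2 fold change 0.05, SE 0.22).

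Levels of different genes were compared per kilobase of annotated exon (CPM per kb). In KO cells the order was led by Ccng1 at 53.8 ± 1.02, Cdkn1a at 41.6 ± 4.29 and Mdm2 at 40.6 ± 4.72 CPM per kb, of which the last 2 did not differ beyond their spread. In control cells it was led by Plk2 at 28.3 ± 1.38, Cdkn1a at 24.9 ± 1.59, Mdm2 at 19.5 ± 1.17 and Ccng1 at 17.9 ± 0.21 CPM per kb. Trp53inp1 and Ak1, with the larger fold changes, were lower in level at 11.2 ± 0.85 and 3.94 ± 1.55 CPM per kb in KO cells. The summed level of the 32 genes was 1131, 1172 and 1112 CPM in the KO libraries, against 671, 666 and 630.1 CPM in the control libraries.

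**Figure D3:**
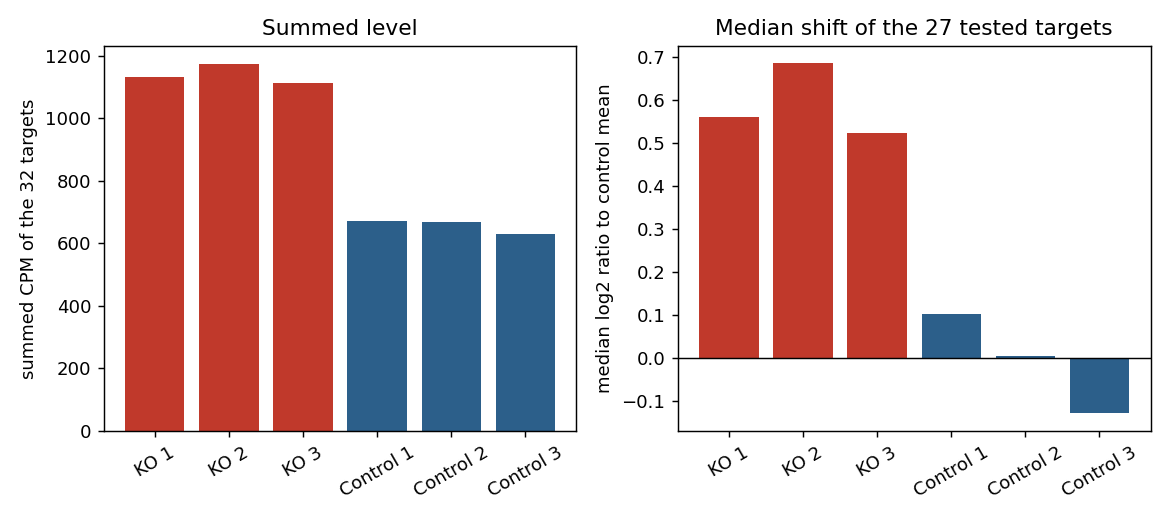
Left, summed CPM of the 32 listed p53 targets in each library. Right, median over the 27 tested targets of the log2 ratio of each library to the mean of the control libraries (for a control library, to the mean of the other control libraries, with 0.5 CPM added to every level). The KO libraries sit at 0.52 to 0.69 and the control libraries at -0.13 to 0.10.

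The shift was seen in each KO library. The median log2 ratio to the control mean over the 27 tested members was 0.56, 0.69 and 0.52 in KO libraries 1, 2 and 3, with 22, 24 and 21 members above the control mean, and over all tested genes it was 0.02, 0.00 and -0.01. For control libraries 1, 2 and 3, each set against the other control libraries, the medians over the members were 0.10, 0.01 and -0.13, with 18, 14 and 10 members above the mean of the others. KO library 2, with the highest median, had the lowest Setdb1 level (12.7 CPM), and with 3 libraries no relation between them can be tested.

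Genes that lie near the members were looked at as well. Within 100000 bases of the 12 called members lay 31 other tested genes, near 11 of the 12. Of these, 0 were higher and 1 was lower in edgeR, with a median log2 fold change of 0.02. The lower one was Chek1, 52094 bases from Ei24. With 2.22% of all tested genes called higher and 0.615% lower, few calls among 31 genes do not set them apart. Near Ak1, Eng and St6galnac4 were at 0.88 and 0.77 without a call, and its other neighbours ran from -0.23 to -0.02. Near Phlda3, Csrp1 was at 0.54 and Tnnt2 at 0.32, neither called. Around the 15 members tested and not called, 46 genes near 14 of them had 0 calls in either direction. Sequence shared between genes was low, with at most 4.3% of the 50-base words of a member (Rrm2b) found in transcripts of another gene.

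Trp53 transcripts themselves did not differ beyond the spread, at 72.3, 62.8 and 60.6 CPM in the KO libraries, against 66.7, 68.7 and 81.8 CPM in the control libraries (log2 fold change -0.15, SE 0.12, adjusted p = 0.5552). p53 is controlled mainly through its protein, which these data do not measure. Of 21 tested genes in the list of p53 and its regulators, none was called by edgeR, DESeq2 or limma-voom. At an unadjusted p under 0.05 there were 1 higher and 1 lower, beside 10.1% and 7.64% of all tested genes. The median log2 fold change was -0.095, beside 0.01 for all tested genes. The ribosomal protein genes Rpl5 and Rpl11, whose products can hold MDM2 off p53, were at 671 ± 97.5 and 172 ± 14.4 CPM in KO cells, and at 704.5 ± 125 and 181 ± 33.7 CPM in control cells.

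Genes that sense and signal DNA damage lay on the lower side. Of 21 tested, 0 were higher and 2 were lower in edgeR, beside 0.615% of all tested genes lower. At an unadjusted p under 0.05, 0 were higher and 10 lower, beside 7.64% of all tested genes lower. The log2 fold change was positive in 4 of the 21, against 50.9% of all tested genes, and the median was -0.30. Without KO library 1 none of the 21 was called lower, beside 0.165% of all genes then tested. Chek1, the kinase that acts on stalled replication forks, was at 11.2, 18.5 and 21.3 CPM in the KO libraries, against 31.8, 30.1 and 30.7 CPM in the control libraries (log2 fold change -0.84, SE 0.19, adjusted p = 0.02956). The groups did not overlap, and KO library 1 was the lowest. Rif1, a replication timing and repair gene, was at 78.2 ± 2.30 CPM in KO cells and 117 ± 20.6 CPM in control cells (adjusted p = 0.03171). Both calls ended without any 1 of 5 of the 6 libraries (all but KO library 3 for Chek1 and all but control library 3 for Rif1, adjusted p up to 0.1091 and 0.1404) and in limma-voom, and DESeq2 did not call Chek1.

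**Figure D4:**
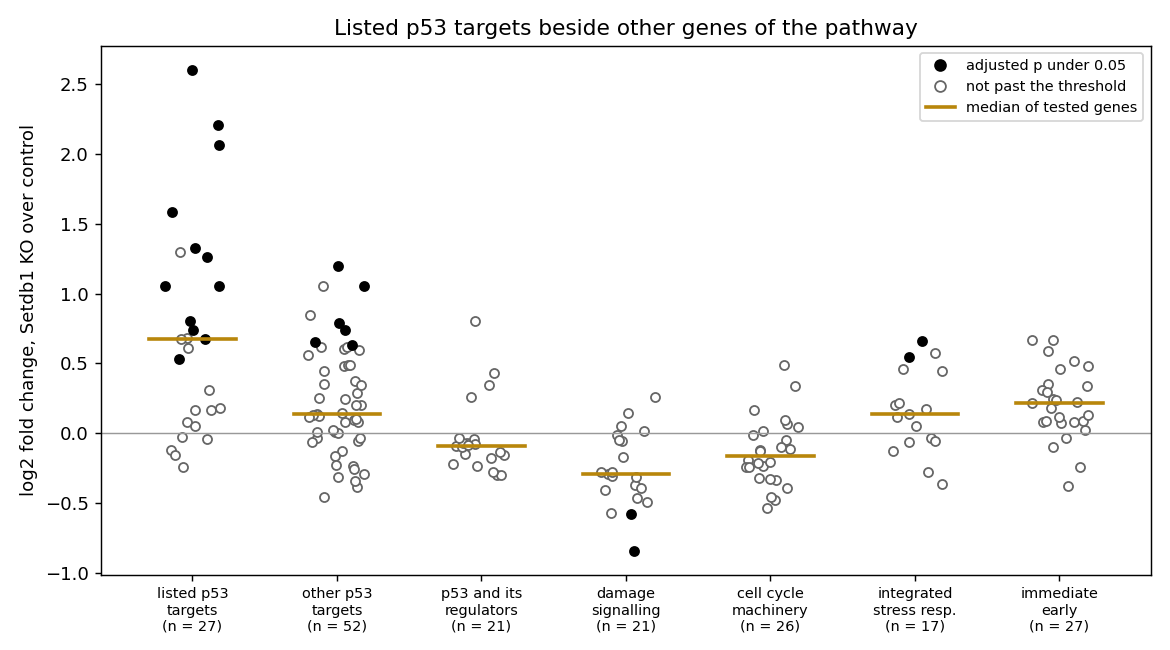
Log2 fold change of Setdb1 KO over control for tested genes of the listed p53 targets and of other lists, with the 32 members left out of the other lists, filled points for an adjusted p under 0.05 and a bar at each list's median. The median is 0.67 for the listed targets, 0.14 for other p53 targets and -0.30 for damage signalling, and points are spread sideways only to be seen.

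A further list of genes reported as p53 targets, in human or mouse cells, showed a smaller shift. Of 52 tested, 6 were higher and 0 lower in edgeR, beside 2.22% and 0.615% of all tested genes. At an unadjusted p under 0.05, 13 were higher and 1 lower, beside 10.1% and 7.64%. DESeq2 called 2 higher and 0 lower, beside 1.06% and 0.266%. The median log2 fold change was 0.14. KO libraries lay all above control libraries in 17 of the 52 and all below in 3, beside 12.8% and 11.5% of all tested genes. Tob1, an antiproliferative gene related to Btg2, was at 59.0, 60.8 and 64.7 CPM in the KO libraries, against 36.5, 37.8 and 32.5 CPM in the control libraries (log2 fold change 0.79, SE 0.12, adjusted p = 0.001343), and its call held in all 16 alternatives. The phosphatase gene Ptp4a3 rose, with a log2 difference of 1.20 (SE 0.24), the thiamine transporter gene Slc19a2 by 0.65 (SE 0.14) and the lipase gene Abhd4 by 1.06 (SE 0.23). None of these 3 calls was made by DESeq2 (adjusted p = 0.1423, 0.1503 and 0.2515), and that of Abhd4 was not made by limma-voom. They also ended without KO library 1 or KO library 2 and without 1 or 2 other libraries, namely control library 2 for Ptp4a3, KO library 3 or control library 1 for Slc19a2, and control library 1 or 3 for Abhd4 (adjusted p up to 0.1337). Without KO library 1 the list had 2 higher genes, beside 1.15% of all genes then tested.

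Of 26 tested genes of the cell cycle machinery (cyclins, their kinases and inhibitors, the retinoblastoma family, E2F and DREAM complex genes, Pcna and Myc), none was called by edgeR, DESeq2 or limma-voom. At an unadjusted p under 0.05, 0 were higher and 6 lower, beside 10.1% and 7.64% of all tested genes. The median was -0.16. Ccnd1, the main D-type cyclin gene, was at 278 ± 12.3 CPM in KO cells and 301 ± 31.8 CPM in control cells, and its kinase gene Cdk6 was at 202 ± 27.1 CPM in KO cells and 281 ± 40.2 CPM in control cells (adjusted p = 0.08923). Without KO library 1 and control library 3 together, 2 genes of the list and 4 damage signalling genes were called lower, beside 0.942% of all genes then tested.

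Several members answer to other stress pathways as well, and genes of these pathways were measured beside them. In the list of the integrated stress response, to which Sesn2, Ddit4 and Gdf15 also belong, 2 of the 17 other tested genes were higher and 0 lower. The shares over all tested genes were 2.22% and 0.615%. The median of the list was 0.14, with 11 positive and 6 negative fold changes. At an unadjusted p under 0.05, 5 were higher and 2 lower, beside 10.1% and 7.64% of all tested genes. Of the genes not called, Atf4, Ddit3 and Asns had log2 fold changes of -0.03, 0.05 and -0.37. Hspa5, Vldlr and Atf3, also not called, had log2 fold changes of 0.45, 0.58 and 0.46. Xbp1, a factor of the unfolded protein response, was called higher, at 90.3 ± 8.17 CPM in KO cells and 57.0 ± 11.1 CPM in control cells. Herpud1, an endoplasmic reticulum protein gene, was also called higher, at 63.5 ± 3.17 CPM in KO cells and 43.4 ± 7.18 CPM in control cells. Both calls ended without KO library 1 or 2 or control library 1 or 2, and that of Herpud1 without KO library 3 as well (adjusted p up to 0.2404). Herpud1 was also not called by DESeq2 (adjusted p = 0.24), by limma-voom (0.0754), or in edgeR with library totals alone, no low-count filter or the replicate block. Of 27 tested immediate early and dissociation genes, Btg2 left out, none was called by edgeR, DESeq2 or limma-voom. At an unadjusted p under 0.05, 7 were higher and 1 lower, beside 10.1% and 7.64% of all tested genes. The log2 fold change was positive in 23 of the 27, beside 50.9% of all tested genes, with a median of 0.22. Without KO library 1 and control library 3 together, 3 of these 27 were called higher, beside 2.56% of all genes then tested. Of 17 tested NRF2 antioxidant targets, Ephx1 left out, 2 were higher and 0 lower, beside 2.22% and 0.615% of all tested genes, with a median of -0.04. The higher genes were Gsta4 (98.0 ± 15.1 CPM in KO cells and 1.84 ± 0.73 CPM in control cells) and Cbr3 (22.0 ± 4.12 CPM in KO cells and 1.56 ± 0.57 CPM in control cells). The part of these pathways in the values of the p53 targets was not tested.

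Cell type markers moved with the groups in part. The muscle stem cell list, 12 of 12 tested, summed to 1358 to 1646 CPM in the KO libraries, against 1194 to 1274 CPM in the control libraries, with Myod1 and Cd82 called higher. The fold change was positive in 7 of the 12 and negative in 5. Myod1 was at 292 CPM in KO cells and 142 CPM in control cells. Pax7 was at 26.88 and 26.86 CPM and Myf5 at 36.7 and 37.2 CPM in KO and control cells. Mural and smooth muscle markers, 7 of 10 tested, summed to 600.5 to 840 CPM in the KO libraries, against 441 to 513 CPM in the control libraries. Tagln and Acta2 were called higher. Des, not called, held the largest part of that sum, at 510 CPM in KO cells and 370.5 CPM in control cells. The fold change was positive in 6 of the 7 and negative in 1, Rgs5 (-0.002 on the log2 scale). Myh11, not tested, was at 1.81 CPM in KO cells and 1.90 CPM in control cells. Mature fibre markers, 4 of 10 tested, summed to 88.1 to 115 CPM in the KO libraries, against 47.1 to 65.1 CPM in the control libraries. Acta1 and Actn3 were called higher. Actn3 held the largest part of that sum, at 75.2 CPM in KO cells and 44.25 CPM in control cells. The fold change was positive in 3 of the 4 and negative in 1, Tnnt3 (-0.32 on the log2 scale). Fibro-adipogenic markers (10 of 12 tested, 1670.0 to 2504 against 882 to 1933 CPM), macrophage markers (5 of 12 tested, 14.1 to 49.3 against 11.9 to 117 CPM), endothelial markers (2 of 10 tested, 12.5 to 18.4 against 5.8 to 14.4 CPM) and neutrophil markers (6 of 12 tested, 4.8 to 755 against 1.6 to 2050.3 CPM) had sums that overlapped between KO and control libraries, and no lymphocyte marker had enough reads to be tested. All 10 tested fibro-adipogenic markers had a positive fold change, beside 50.9% of all tested genes, with a median of 0.54. In 3 of these 10 the KO libraries lay all above the control libraries, beside 12.8% of all tested genes. EdgeR and limma-voom called 0 of the 10 and DESeq2 called 1 higher. The fold change was positive in 1 of 5 macrophage, 2 of 2 endothelial and 0 of 6 neutrophil markers. The calls of Cd82, Acta2 and Actn3 ended when 1 library was left out (4, 4 and 1 of the 6), Cd82 and Acta2 were not called by DESeq2 or limma-voom, and those of Myod1, Tagln and Acta1 did not. Their part in the values of the p53 targets was not tested.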

How the data were processed

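RNA from muscle stem cells was sequenced in 3 Setdb1 KO and 3 control libraries. A stranded TruSeq kit was used on 400 ng of total RNA after depletion of ribosomal RNA, with paired reads of 75 bases, per the labels' protocols. These also name a SMARTER kit, so the kit is not settled. The authors deposited whole-number counts per gene, not normalised, and STAR, Salmon, DESeq2 1.34.0 and GRCm38 are named per the submitters' processing notes. The sources used here do not give the counting tool, the strand setting or the annotation release, so a gene and an antisense partner may share reads.

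Counts were tested with edgeR 4.0.16 in R 4.3.3 (robust quasi-likelihood fit, TMM, default filter, two-sided, Benjamini-Hochberg adjustment over 11224 genes). Each SE is the absolute log2 fold change divided by the square root of its F statistic. Symbols came from a table of Ensembl names (55141 of 55487 genes), and coordinates and exon lengths from GENCODE release M21. Alternatives included DESeq2 1.42.0, limma-voom 3.58.1, other scalings and filters, the replicate block and each library left out. The procedure was tested on simulated data. It recovered 21.8% of 1.5-fold, 68.2% of 2-fold and 92.9% of 4-fold changes over all tested genes. A member that was not called is therefore not shown to be unchanged. Exact intervals cover counting error only. No library was a copy of another of its group within sampling noise. Replicates are biological per the labels.

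The members and lists were chosen with earlier results of these data known. Every member is named, with values per library for those called and for a fixed set of others, and from each further list the called genes, at most 4 by adjusted p, or the 2 with the highest level. Any other gene named from these lists was chosen after its values were seen. Lists are described by counts and medians and were not tested as sets. The other steps ran in Python 3.11.15 (SciPy 1.17.1, pandas 2.3.3, matplotlib 3.10.9).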

Additional observations from a re-analysis of the deposited data

How the results depend on the processing

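The count of p53 targets called higher was 12, and it was 9 to 12 under the 10 alternatives that kept all libraries or left out 2 (9 with DESeq2, 11 with limma-voom, 9 with library totals alone) and 8 to 11 with each library left out. No alternative called a member lower. Cdkn1a, Mdm2, Ccng1, Trp53inp1, Phlda3, Zmat3, Ak1 and Ephx1 kept their calls under all 16 alternatives. The median log2 fold change of the tested members was 0.61 to 0.68 under those 10 and 0.581 to 0.686 with each library left out. Over all genes, leaving out 1 library gave 133 to 255 higher and 15 to 90 lower genes, against 249 and 69. DESeq2 gave 147 higher and 37 lower, limma-voom 34 lower, no low-count filter 138 lower, and removing KO library 1 and control library 3 together, chosen after seeing the data, 106 lower. The samples share replicate numbers, but same-numbered libraries did not deviate together (correlations of 0.14, -0.09 and -0.06). With the number as a replicate block, 41 genes were lower and 11 members higher, and of the members called Ei24 alone was lost (adjusted p = 0.07987). Some members that were not called changed sign, and the cause was not tested. With each library left out in turn, Sesn1 ran from -0.172 to 0.158, Rrm2b from -0.106 to 0.315, Tigar from -0.339 to 0.062, Pidd1 from -0.21 to 0.062, Ercc5 from -0.02 to 0.29 and Pvt1 from -0.069 to 0.133 on the log2 scale. With both libraries removed, Rrm2b was at -0.106, Pvt1 at -0.032 and Aen at -0.058. Pvt1 was at -0.018 with library totals alone and Sesn1 at 0.003 with limma-voom. At 4052569 to 5690844 counts per library, members near 1 CPM rest on few reads, and small differences in them were not detectable at this depth.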
